A study of Mus musculus with 8 samples.

Results

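The crush effect in cholinergic ribosomes of the mouse spinal cord was read from 4 of the 8 libraries of the series. Animals 35 and 52 carried Chat-Cre and had the sciatic nerve of 1 side crushed with forceps. Animals 10 and 3 carried Chat-Cre and were not crushed. Libraries were placed by title, and 13808 of 38924 genes had enough reads to be tested. The series describes the mice as HARPL22;ChAT-Cre, wild type for Gars, on the strain background B6.CgxB6.129, with the genotype written Rpl22 +/-; Chat +/-. Animal 35 was 18 weeks old, animal 52 was 9 weeks old, and both uncrushed animals were 8 weeks old. The no-Cre precipitates, which all carry the Rpl22 allele and give the background of the antibody and beads, came from crushed animals 51 and 58 (9 weeks) and uncrushed animals 4 and 6 (8 weeks). For uncrushed animal 3 the genotype entry reads Chat +/+ and for no-Cre animal 4 it reads Chat +/-, against their titles. Age, and a number that all uncrushed titles share, cannot be told apart from crush. Below, "after crush" and "before" stand for crushed and uncrushed animals, which are different animals. Likewise "rose" and "fell" compare these groups and do not follow 1 animal over time. How long after crush the cords were collected was not given in the sources used here. The number that ends each title is taken as the animal, and p-values measure only the spread between these samples.

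RiboTag puts a haemagglutinin (HA) tag on the ribosomal protein Rpl22 in cells that express Cre, and an antibody against HA then pulls down their ribosomes with the mRNA on them. Chat-Cre acts in cholinergic cells, which in the cord are motor neurons together with preganglionic autonomic neurons and some interneurons. Motor neurons whose axons are cut or crushed in a peripheral nerve are known to switch on a regrowth programme that includes the transcription factor Atf3, growth cone and cytoskeletal proteins, neuropeptides and chemokines, while genes of synaptic transmission tend to be turned down. The nerve was crushed on 1 side and the whole cord was used, so injured cells are mixed with uninjured ones in every crushed library. In such bulk samples fewer cells of a type and less RNA per cell cannot be told apart.

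Chat, which codes for the acetylcholine-making enzyme, was present in all 4 libraries. It stood at 78.17 and 90.9 CPM in crushed animals 35 and 52 and at 97.7 and 126.02 CPM in uncrushed animals 10 and 3, where CPM are counts scaled to library totals corrected by TMM. The no-Cre libraries held 3.83 to 5.16 CPM, so Chat followed the titles and not the genotype entries of animals 3 and 4. Neither Chat (log2 fold change -0.40 ± 0.17, adjusted p = 0.239) nor the choline transporter Slc5a7 (-0.06 ± 0.13, adjusted p = 0.857), the motor neuron filament Prph (-0.24 ± 0.13, adjusted p = 0.349) or the tag gene Rpl22 (-0.26 ± 0.19, adjusted p = 0.480) passed edgeR's quasi-likelihood test, with Benjamini-Hochberg adjustment over all genes. The signs of Chat, Slc5a7, Prph and Rpl22 turned positive when libraries were scaled by library size alone (0.02, 0.38, 0.20 and 0.19). Totals ran from 8215026 to 11522721 expected counts. Xist, the RNA of the inactive X chromosome, stood at 161.87 CPM in animal 52 and 81.05 CPM in animal 10. The Y-linked Ddx3y stood at 43.04 CPM in animal 35 and 55.02 CPM in animal 3, so each Cre group held 1 library of each kind. Without Cre, Ddx3y stood at 26.87 and 33.98 CPM in crushed animals 51 and 58 and at 0.78 and 28.85 CPM in uncrushed animals 4 and 6. Xist stood there at 0.14 and 5 CPM against 1119.47 and 5.34 CPM. The no-Cre groups, and comparisons that use them, were thus not balanced in this way. Gm42418, a locus where ribosomal RNA reads are often counted, took 8.15% and 8.86% of the crushed libraries and 22.95% and 17.57% of the uncrushed ones.

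Of 13808 genes, 126 (0.913%) passed an adjusted p of 0.05 in edgeR's quasi-likelihood test, 49 of them higher (0.355%) and 77 lower (0.558%). At an unadjusted p of 0.05 1315 were higher (9.52%) and 1444 lower (10.5%). Of the 49 higher genes 15 rose more than 4-fold and 4 less than 2-fold. Of the 77 lower genes 18 fell more than 4-fold and 39 less than 2-fold. All but 1 of the higher genes code for protein, against 59 of the 77 lower ones, and 11 of the lower are pseudogenes. The shares of these types among all genes tested were not counted, so these counts do not show that a type was over- or under-represented. The split into higher and lower calls depends on the scaling. Of the calls 38.89% were higher with TMM, 96.81% (1638 higher, 54 lower) with library size alone, which moved the median of all genes from 0.01 to 0.45, and 75.44% (86 higher, 28 lower) with totals that leave out ribosomal and mitochondrial RNA. All 126 genes kept their sign under those scalings.

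**Figure D1:**
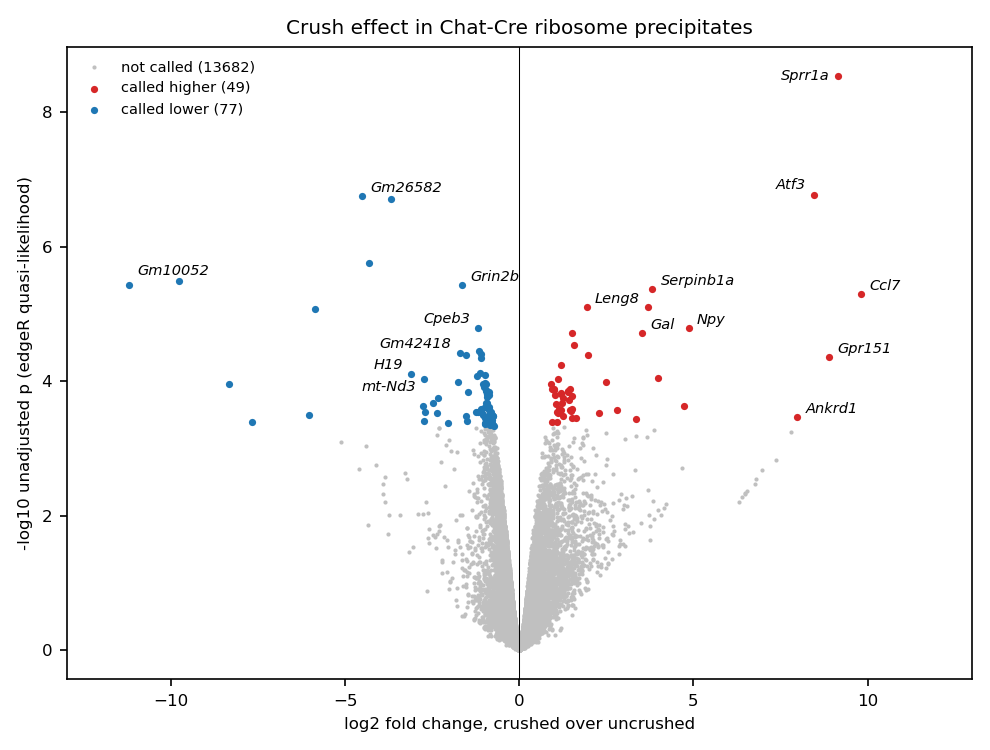
Log2 fold change, crushed over uncrushed, against -log10 of the unadjusted p for 13808 genes in the 4 Cre libraries; red points are the 49 genes called higher, blue points the 77 called lower and grey points the rest. Sprr1a and Atf3 stand at the top right, with the smallest p-values of the higher genes, while 39 of the 77 lower genes fell by less than 2-fold.

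The calls rest on 2 animals a group, and each library was left out in turn. Without animal 35, 13 of the 49 higher and 7 of the 77 lower genes remained called, and without animal 52, 27 and 30 remained. Without animal 10 or without animal 3 all 126 remained, among 401 and 1108 calls. Every called gene named in this text, apart from those called in all 4 fits, lost its call without animal 35. The exceptions were Trf and Slc1a2, which lost theirs without animal 52. Without animal 35 the log2 fold change of Gap43 was 0.96, beside 1.24 with all 4 libraries, and that of Kcnk9 was -0.98, beside -0.97. Without animal 52 Trf had 1.23, beside 1.44, and Slc1a2 0.79, beside 1.10. All 126 genes kept their sign in these fits. In each of them the spread comes only from the group left with 2 libraries, and the lone library is assumed to vary like that group. Calls lost or kept therefore depend on which pair remains and do not show which animal carried an effect. The genes called in all 4 of these fits were Sprr1a, Atf3, Serpinb1a, Leng8, Ccl7, Gal, Cyp1b1, Kmt2a, Tshz2, Mobp and Bcas1 on the higher side, and Grin2b with 6 predicted genes or pseudogenes (Gm26582, Gm10052, Gm3591, Gm26649, Gm10020 and Rpl15-ps2) on the lower side. Bcas1 and the 6 unnamed loci were chosen after their values were seen. With all 8 libraries in the fit, 6 higher and 5 lower genes remained.

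Sprr1a codes for a small proline-rich protein known from regenerating axons. It stood at 193.49 and 132.99 CPM in crushed animals 35 and 52 and at 0.26 and 0.29 CPM in uncrushed animals 10 and 3. The groups lay far apart, with 4738 counts after crush and 5 before. Its log2 fold change was 9.14 ± 0.33 (adjusted p = 3.92e-05, edgeR). The no-Cre precipitates of crushed animals 51 and 58 held 6.11 and 16.16 CPM, and those of uncrushed animals 4 and 6 held 0.39 and 0.27 CPM. Sprr1a was therefore also higher in both crushed background libraries, at a lower level than with Cre. On the scale per transcript length (TPM) Sprr1a reached a level of 707 and 497 in animals 35 and 52, below the abundant filament Prph at 718 and 666 TPM and above Slc5a7 at 246 and 248 TPM.

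Atf3, a transcription factor of the stress and injury response, stood at 51.52 and 35.76 CPM after crush and at 0.26 and 0 CPM before. The uncrushed libraries held 2 counts in all and the crushed ones 1266, a ratio of 400 (95% Clopper-Pearson interval 110 to 3304, counting error only; adjusted p = 0.000678, edgeR). In the no-Cre libraries Atf3 stood at 2.31 and 4.33 CPM after crush and at 0 and 0.53 CPM before. Ankrd1, a nuclear co-factor that responds to mechanical and injury signals, stood at 3.23 and 2.22 CPM after crush, from 79 counts, and at 0 before, which is at least 16.6-fold higher when the uncrushed group is set at 3 counts (adjusted p = 0.0456, edgeR). Jun, the other injury transcription factor most often named with Atf3, did not pass the test. It stood at 89.62 and 73.34 CPM against 94.71 and 84.24 CPM (-0.14 ± 0.15, adjusted p = 0.672, edgeR), so the groups overlapped. Stat3 (0.02 ± 0.13), Klf6 (-0.29 ± 0.16) and Sox11 (-0.47 ± 0.49), further transcription factors on the injury list, did not pass either. Jun, Stat3, Klf6 and Sox11 were chosen after their values were seen.

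Sprr1a and Procr hold the letters of the AP-1 motif, bound by the family of Jun and Fos factors with which Atf3 can pair, and were picked for that. Their upstream sequences are shown with those of Atf3 and Npy, which also rose. Each is the 250 bases before the RefSeq start (build GRCm38.p6), 5′ to 3′ on the gene's strand, with AP-1 matches (TGANTCA, the same on both strands) in capitals.
Sprr1a, chr3:92485882-92486131, minus strand: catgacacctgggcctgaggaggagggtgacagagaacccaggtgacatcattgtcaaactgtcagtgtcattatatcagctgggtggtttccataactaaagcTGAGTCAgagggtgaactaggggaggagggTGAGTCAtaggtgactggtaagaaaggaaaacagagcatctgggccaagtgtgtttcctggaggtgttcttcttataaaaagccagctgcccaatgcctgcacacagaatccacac
Procr, chr2:155750967-155751216, plus strand: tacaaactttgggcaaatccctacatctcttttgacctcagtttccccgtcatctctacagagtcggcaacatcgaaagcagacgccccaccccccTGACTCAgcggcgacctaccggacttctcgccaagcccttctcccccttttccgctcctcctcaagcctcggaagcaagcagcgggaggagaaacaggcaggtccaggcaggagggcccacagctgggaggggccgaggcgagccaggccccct
Atf3, chr1:191183334-191183583, minus strand: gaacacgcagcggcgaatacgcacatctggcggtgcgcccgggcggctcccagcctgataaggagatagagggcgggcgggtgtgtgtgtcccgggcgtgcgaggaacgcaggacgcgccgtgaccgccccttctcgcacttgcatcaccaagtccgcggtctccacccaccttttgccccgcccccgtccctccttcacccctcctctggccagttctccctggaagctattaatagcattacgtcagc
Npy, chr6:49822460-49822709, plus strand: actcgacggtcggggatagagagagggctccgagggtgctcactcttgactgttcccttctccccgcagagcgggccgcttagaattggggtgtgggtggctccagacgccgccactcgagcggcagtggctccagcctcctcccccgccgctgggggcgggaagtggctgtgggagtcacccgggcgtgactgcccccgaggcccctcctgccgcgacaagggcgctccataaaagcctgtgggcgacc
Sprr1a holds TGAGTCA at 146 and at 116 bases before the start, and Procr TGACTCA at 154 bases before it. The Atf3 and Npy windows hold no exact match to TGANTCA or to the cyclic AMP element TGACGTCA. Nor do the windows of Gal, Ankrd1 and Timp1, which rose too and are not shown. Only exact letters were searched, so near matches, such as ttacgtca near the end of the Atf3 window, were not counted. Among all 32851 RefSeq promoters 6.75% hold TGANTCA and 1.55% TGACGTCA. Promoters were found for 35 of the 49 higher genes, and 3 of their 43 promoters (6.98%) hold TGANTCA, those of Leng8, Procr and Sprr1a. Of the lower genes 37 of 77 had a promoter, and 1 of the 48 (2.08%), that of Spock1, holds TGANTCA. No promoter of either set holds TGACGTCA. The share among higher genes is close to that of all promoters, and a match is only a run of letters.

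The neuropeptides Npy and Gal rose. Npy, neuropeptide Y, stood at 15.7 and 7.6 CPM after crush and at 0.39 CPM in each uncrushed library, with 344 counts against 7. Its log2 fold change was 4.86 ± 0.53 (adjusted p = 0.0148, edgeR). Npy lost its call without animal 35, where its log2 fold change was 4.25. Its background went the other way, at 0.95 and 2.17 CPM in crushed and 4.29 and 3.47 CPM in uncrushed no-Cre libraries. Gal, the peptide galanin, stood at 27.22 and 18.59 CPM after crush and at 2.99 and 1.17 CPM before (3.51 ± 0.40, adjusted p = 0.0156, edgeR). The no-Cre libraries held 0.78 to 4 CPM of Gal, and they overlapped between crushed and uncrushed animals. Vip, a further peptide of the list, was at 5.57 and 2.93 CPM against 1.3 and 2.43 CPM and did not pass (adjusted p = 0.250). Vip was chosen after its values were seen.

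Among chemokines, secreted proteins that draw in white blood cells, the monocyte attractants Ccl7 and Ccl2 rose. Ccl7 stood at 10.57 and 8.62 CPM after crush and at 0 in both uncrushed libraries, at least 58.1-fold higher by its 276 counts (adjusted p = 0.00686, edgeR). Crushed no-Cre libraries held 0.54 and 1.17 CPM of it and uncrushed ones 0. Ccl2 stood at 4.56 and 4.51 CPM against 0.26 and 0.29 CPM (3.98 ± 0.55, adjusted p = 0.0380, edgeR), and at 0 or 0.14 CPM in every no-Cre library. Of 12 tested members of the chemokine and cytokine list 2 were called higher and 0 lower, beside 0.355% and 0.558% of all genes, with a list median of 0.59 beside 0.01 for all genes. Another 15 of the 27 members were too low to test. Ccl7 and Ccl2, with 0 and 5 counts in the uncrushed libraries, had enough reads to be tested only through the crushed group. The list's count and median are therefore set in part by that filter and do not show a rise of the list. The most abundant member, Spp1 (osteopontin), was at 633.77 and 583.15 CPM against 567.36 and 546.25 CPM and did not pass (adjusted p = 0.646), nor did Cx3cl1, the neuronal ligand of the microglial receptor Cx3cr1 (-0.49 ± 0.15, adjusted p = 0.124).

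Gpr151, an orphan receptor, stood at 5.7 and 4.43 CPM after crush and at 0 before, at least 30.7-fold higher by 146 counts (adjusted p = 0.0246, edgeR). Cd44, the hyaluronan receptor, stood at 22.22 and 15.11 CPM against 2.21 and 5.26 CPM (2.28 ± 0.38, adjusted p = 0.0449, edgeR). Its no-Cre libraries held 10.95 to 15.99 CPM, above the uncrushed Cre libraries and below animal 35. Chl1, an adhesion molecule of growing axons, stood at 65 and 57.36 CPM against 18.21 and 27.66 CPM (1.41 ± 0.21, adjusted p = 0.0380, edgeR), with 47.18 to 81.46 CPM without Cre. Procr, the endothelial protein C receptor, was picked with its values in view. It was found at 16.84 and 12.03 CPM against 3.38 and 1.85 CPM (2.49 ± 0.35, adjusted p = 0.0380, edgeR), and at no more than 1.83 CPM in any no-Cre library. Ngfr, the low-affinity neurotrophin receptor and also chosen that way, was at 16.9 and 9.41 CPM against 4.03 and 3.41 CPM and missed the threshold (1.83 ± 0.34, adjusted p = 0.0541).

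**Figure D2:**
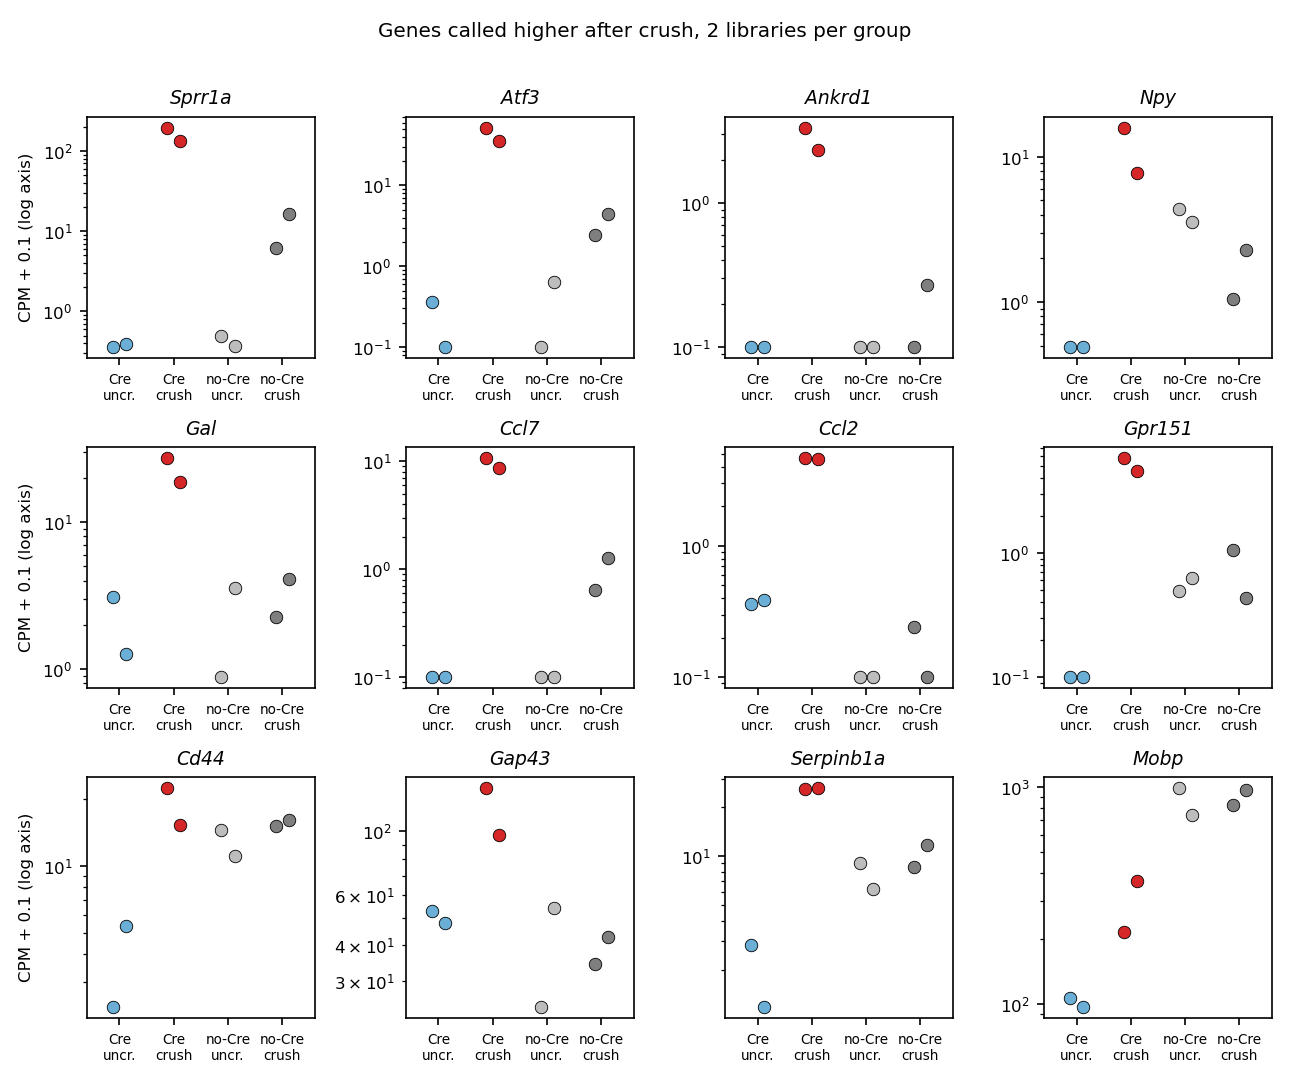
CPM plus 0.1 on log axes for 12 genes called higher, with 1 point per library and 2 libraries in each of the 4 groups (uncr., uncrushed). For Sprr1a, Atf3, Npy, Gal, Ccl7, Ccl2, Gpr151 and Gap43 the Cre crushed points lie above all other libraries, whereas Mobp is higher in every no-Cre library.

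Gap43, the growth-associated protein of the growth cone, stood at 141.46 and 96.99 CPM after crush and at 52.82 and 47.72 CPM before (1.24 ± 0.19, adjusted p = 0.0396, edgeR). Tubb6, a class V beta tubulin, stood at 35.13 and 22.71 CPM against 11.06 and 9.54 CPM (1.49 ± 0.24, adjusted p = 0.0449), and at 2.83 to 9.35 CPM without Cre. Stmn3, a stathmin that binds tubulin, fell from 1012.17 and 786.8 to 492.56 and 438.53 CPM (-0.95 ± 0.16, adjusted p = 0.0480). These 2 were the only called members of 23 tubulins and stathmins, 1 higher and 1 lower, beside 0.355% and 0.558% of all genes. The list's median was -0.11, with 9 members above 0 and 14 below. Stmn2 was at 1660.66 and 1205.87 CPM against 1196.13 and 1233.23 CPM and did not pass (adjusted p = 0.487). Sptbn1, a spectrin of the membrane skeleton, rose by 1.12 ± 0.16 to 835.11 and 645.26 CPM (adjusted p = 0.0380), and both no-Cre groups stood at 790.15 CPM or more. Adjusted p-values here are edgeR's.

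In all, 10 of 39 tested axon injury genes were called higher and 0 lower, beside 0.355% and 0.558% of all genes. The median of the 39 was 0.30, and 16 had an unadjusted p under 0.05 on the higher side and 1 on the lower. Uncalled members included Stmn2, the regulator of G proteins Rgs4 (-0.42 ± 0.14, adjusted p = 0.147), the chaperone Hspb1 (0.03 ± 0.15) and the galectin Lgals1 (0.00 ± 0.17), the last 2 chosen after their values were seen. The list was drawn up with results of these data known. Sprr1a and Atf3, with 5 and 2 uncrushed counts, had enough reads to be tested only through the crushed group. In the uncrushed libraries 4 members of the list were at 0. The list's count and median are therefore set in part by the filter on reads and do not show a rise of the list. Another 6 of its 45 members were too low to test.

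Serpinb1a, an inhibitor of neutrophil serine proteases, stood at 25.89 and 26.03 CPM after crush and at 2.73 and 1.07 CPM before (3.82 ± 0.35, adjusted p = 0.00653, edgeR). Its no-Cre libraries ran from 6.14 to 11.66 CPM. Timp1, an inhibitor of matrix metalloproteinases, stood at 3.73 and 4.51 CPM against 0.52 and 0.29 CPM (3.35 ± 0.57, adjusted p = 0.0457, edgeR) and below 1 CPM without Cre. Cyp1b1, a cytochrome P450 that metabolises steroids and aryl hydrocarbons, stood at 10.32 and 10.36 CPM against 0.91 and 0.68 CPM (3.70 ± 0.37, adjusted p = 0.00891, edgeR), and Fads1, a fatty acid desaturase, rose by 1.18 ± 0.15 (adjusted p = 0.0304).

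Kmt2a, a histone H3 lysine methyltransferase, stood at 86.9 and 114.24 CPM after crush and at 30.96 and 36.81 CPM before (1.57 ± 0.19, adjusted p = 0.0221, edgeR). The no-Cre libraries held 148.95 to 317.16 CPM of it. Tshz2, a zinc finger homeobox factor, stood at 51.21 and 52.14 CPM against 19.91 and 16.46 CPM (1.51 ± 0.17, adjusted p = 0.0156), with 60.36 to 108.16 CPM without Cre. Leng8 rose from 14.44 and 13.15 to 46.27 and 58.94 CPM (1.93 ± 0.19, adjusted p = 0.00891) and stood at 152.26 to 185.38 CPM without Cre. These 3 mRNAs were higher in every no-Cre library than in any Cre library.

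In crushed animals 18 of the 49 higher genes stood above both no-Cre libraries, 27 stood below both and 4 overlapped. Over all genes tested the shares were 42.1%, 35.5% and 22.5%. Among the 15 genes that rose more than 4-fold 13 stood above the crushed no-Cre libraries. Among the 34 that rose less, 26 stood below them. Of the 77 lower genes 60 stood above the no-Cre libraries in uncrushed animals, as did 39.95% of all genes tested. Each of these counts is taken in the group where the genes are high by selection. Within the no-Cre libraries, 18 of the 49 higher genes stood above in both crushed animals, 2 stood below and 29 overlapped, and 46 of the 77 lower genes stood below, 5 above and 26 overlapped. Over all genes tested 19.29% stood above and 19.57% below. A test of whether the crush effect differs with and without Cre, in all 8 libraries, called 0 of 15208 genes (0%) by edgeR's quasi-likelihood test, 905 at an unadjusted p of 0.05 (5.95%) and 15 by DESeq2. The smallest adjusted p was that of Npy (0.386), with a difference of 6.17 ± 0.91. For Sprr1a the difference was 4.07 ± 1.80 and for Serpinb1a 3.38 ± 0.62 (adjusted p = 0.830 and 0.491). A crush effect particular to the Cre libraries was thus not shown for any gene by that test.

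Mobp, a myelin protein, stood at 216.09 and 369.86 CPM after crush and at 107.2 and 96.8 CPM before (1.53 ± 0.25, adjusted p = 0.0449, edgeR), and Trf, the transferrin that oligodendrocytes make, at 41.9 and 53.64 CPM against 14.96 and 20.06 CPM (1.44 ± 0.21, adjusted p = 0.0380). Of 16 oligodendrocyte markers 2 were called higher, and 13 had an unadjusted p under 0.05 on the higher side, beside 0.355% and 9.52% of all genes. The list's median was 0.92. Its summed level was 1285.6 and 2095.8 CPM in crushed animals 35 and 52, 1004.1 and 819.6 CPM in uncrushed animals 10 and 3, and 5581.2 to 8498.3 CPM without Cre. None of the 16 was at 0 in either Cre group. Among astrocyte markers Aqp4, the water channel of astrocyte endfeet (34.12 and 44.46 CPM against 17.17 and 17.24 CPM, 1.19 ± 0.19, adjusted p = 0.0449), and Slc1a2, the glutamate transporter (261.91 and 374.53 CPM against 150.91 and 147.25 CPM, 1.10 ± 0.19, adjusted p = 0.0480), rose. The 15 astrocyte markers summed to 1081.6 and 1170.8 CPM after crush, 1067.5 and 931.9 CPM before and 3036.3 to 4142.1 CPM without Cre, with a median of 0.79. The part of such background in the genes that rose was not tested.

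The 22 microglia and macrophage markers summed to 48.9 and 59.1 CPM after crush and 39.4 and 37.1 CPM before, against 246.8 to 352.8 CPM without Cre. Of the 13 tested none was called (median 0.67). T cell and neutrophil markers summed to 4.9 and 5.6 CPM after crush and 9.4 and 9.1 CPM before, against 35.1 to 137.6 CPM without Cre. Schwann cell markers summed to 484.2 and 375.6 CPM against 336.7 and 304.3 CPM, and to 395.2 to 868.8 CPM without Cre, so animal 35 lay within the no-Cre range, with 0 of 8 called (median 1.03). Sensory ganglion markers, which could come with attached roots, summed to 70.5 and 41.2 CPM after crush and to 33.3 and 42.4 CPM before, all within the no-Cre range of 29.9 to 111.3 CPM, with 0 of 8 called and 1 member at 0 in all Cre libraries. The sensory sodium channel Scn10a, chosen after its values were seen, differed within the groups, at 5.76 CPM in animal 35 against 0.08 CPM in animal 52, and at 1.95 CPM in animal 10 against 0.19 CPM in animal 3. Endothelial and pericyte markers summed to 103.4 and 103.2 CPM against 123.6 and 107.6 CPM, with 351.4 to 442.1 CPM without Cre. Of the 15 tested, 11 had a log2 fold change above 0 and 4 below, with a median of 1.04. The 1 called member, the membrane protein Itm2a, went against that median and was lower (-0.83 ± 0.15, adjusted p = 0.0497, edgeR), beside 0.558% of all genes. The part of these cells in the results was not tested.

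**Figure D3:**
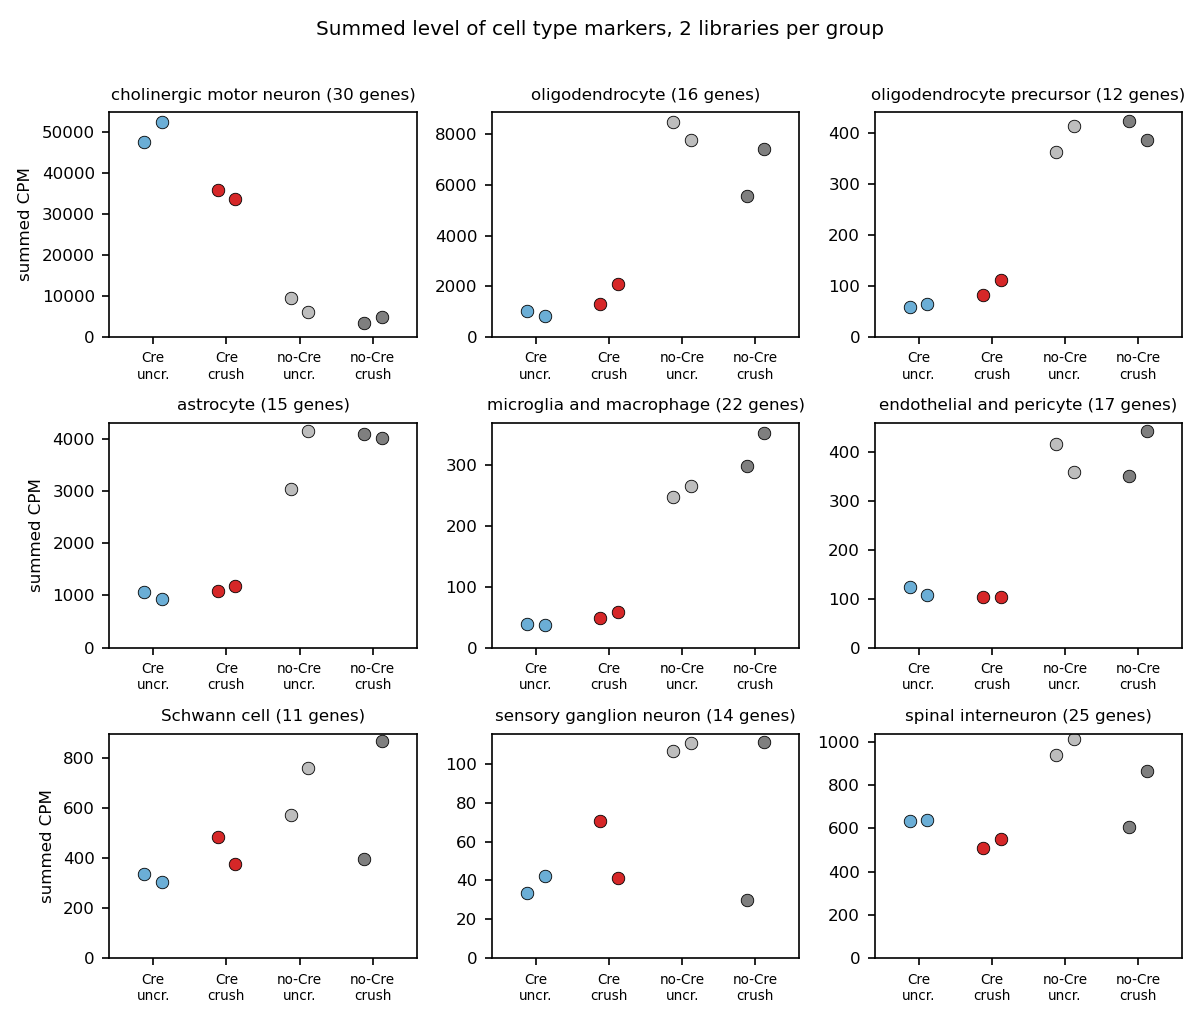
Summed CPM of the markers of 9 cell types, on axes that start at 0, with 1 point per library and 2 libraries per group. Motor neuron markers are far higher in the Cre libraries, oligodendrocyte, astrocyte, microglia and vessel markers far lower, and oligodendrocyte markers are higher in both crushed than in both uncrushed Cre libraries.

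Cholinergic motor neuron markers had no called member among 30 and a median of -0.24. At an unadjusted p of 0.05 (edgeR), 7 of the 30 were lower and 2 higher, beside 10.5% and 9.52% of all genes. The sum of the markers was 35770.9 and 33683.4 CPM after crush and 47586.7 and 52442.7 CPM before, so the groups did not overlap. Most of that sum is neurofilament. Nefm, the medium neurofilament, stood at 14043 and 13129 CPM after crush and at 23414 and 22915 CPM before, just short of the threshold (-0.77 ± 0.14, adjusted p = 0.0514, edgeR). Nefl, the light chain, stood at 13986 and 13168 CPM against 14260 and 18035 CPM (adjusted p = 0.426).

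Grin2b, the GluN2B subunit of the NMDA receptor for glutamate, had the smallest p of the genes that fell, predicted genes and pseudogenes aside. It stood at 107.73 and 97.71 CPM after crush and at 291.42 and 350.99 CPM before (-1.65 ± 0.15, adjusted p = 0.00637, edgeR). The no-Cre libraries held 205.2 and 208.24 CPM after crush and 249.94 and 250.8 CPM before, so the crushed Cre libraries lay below every other library. No other of the 18 ionotropic glutamate receptor subunits was called, so 1 of 18 was lower, beside 0.558% of all genes. The obligatory subunit Grin1 stood at 166.15 and 142.09 CPM against 181.49 and 193.22 CPM (-0.28 ± 0.14, adjusted p = 0.301), and the AMPA receptor subunit Gria3 at 171.15 and 158.86 CPM against 174.72 and 199.55 CPM (adjusted p = 0.503). The list's median was -0.04.

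The fall of Grin2b reads differently per transcript length. The effective length that the authors' RSEM tables give a gene is a mean over its transcripts, weighted by their estimated abundance, and for Grin2b it was 7797 and 9719 bases in crushed animals 35 and 52 and 19032 and 16056 bases in uncrushed animals 10 and 3. In the no-Cre libraries it ran from 14290 to 18578 bases, so the crushed Cre libraries held the shortest mean transcript. In TPM, which divides by that length, Grin2b stood at 31.8 and 23.7 after crush and at 21.9 and 39.5 before, and the groups overlapped. With effective length as an offset in the same test, an alternative chosen after the data were seen, its log2 fold change was -0.64 ± 0.22 and it was not called (adjusted p = 0.190, edgeR). Over all genes tested 360 (2.61%) differed in mean effective length between the groups by more than 1.5-fold, as did 2 of the 49 higher and 2 of the 77 lower genes. Those were Leng8 (947 and 1145 bases after crush, 1895 and 1673 before), Cd44 (2093 and 2339 against 4147 and 2939), Grin2b and the transcription factor Nfia (4039 and 3897 against 8606 and 7377).

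Nfia, chosen after its values were seen, was at 189.25 and 181.73 CPM after crush and at 344.63 and 331.9 CPM before (-0.87 ± 0.13, adjusted p = 0.0380, edgeR). With the length offset its sign turned (0.14 ± 0.14, adjusted p = 0.637). The other 125 called genes kept their sign there, but only 24 of the 126 kept their call among 13 higher and 13 lower. On the higher side these included Sprr1a, Atf3, Serpinb1a, Leng8, Ccl7, Gal, Kmt2a, Cyp1b1, Npy, Trf, Gpr151 and Ccl2. Leng8 rose by 2.70 ± 0.18 there (adjusted p = 0.00226). On the lower side they were Pura, Lars2, Klc2, Zfp451 and Gm42418 with 6 further Gm or Rpl pseudogene symbols. Klc2 and Zfp451 were chosen after their values were seen.

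Channels of the nerve cell membrane fell by about 2-fold in 2 cases. Kcnk9, a background potassium channel, stood at 52.34 and 51.35 CPM against 101.87 and 101.77 CPM (-0.97 ± 0.13, adjusted p = 0.0376, edgeR), and Scn4b, a beta subunit of sodium channels, at 140.58 and 144.07 CPM against 324.21 and 264.8 CPM (-1.05 ± 0.15, adjusted p = 0.0380). For both genes every crushed library lay below every uncrushed one. Of 36 potassium channels Kcnk9 was called and of 27 sodium and calcium channels Scn4b, both lower, beside 0.558% of all genes, with list medians of -0.09 and -0.05. At an unadjusted p of 0.05 (edgeR), 7 of the 36 were lower and 0 higher, and 6 of the 27 lower and 2 higher. The shares of all genes were 10.5% lower and 9.52% higher. Kcna1, a low-threshold potassium channel, stood at 606.17 and 572.16 CPM against 812.21 and 924.51 CPM (adjusted p = 0.0888), and Scn8a, the main sodium channel of the axon initial segment, at 363.75 and 356.17 CPM against 467.31 and 549.86 CPM (adjusted p = 0.113). The 19 glycine and GABA receptor subunits had no call (median -0.01). Slc12a5, the chloride exporter KCC2, missed the threshold at 233.3 and 230.94 CPM against 359.59 and 437.86 CPM (-0.78 ± 0.15, adjusted p = 0.0541). Slc5a3, a myo-inositol transporter, fell by 1.14 ± 0.15 on the log2 scale (adjusted p = 0.0376).

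Calb2, the calcium buffer calretinin, fell from 134.65 and 121.35 to 67.85 and 62.18 CPM (-0.98 ± 0.14, adjusted p = 0.0380, edgeR). Celsr2, a cadherin of planar cell polarity that guides axons, fell from 240.81 and 259.64 to 112.54 and 120.97 CPM (-1.10 ± 0.14, adjusted p = 0.0246). Celsr2 was 1 of the 46 lower genes that also stood lower in both crushed no-Cre libraries, at 117.66 and 135.44 CPM against 269.05 and 197.38 CPM. Spock1, a secreted proteoglycan, fell by 0.95 ± 0.14 on the log2 scale (adjusted p = 0.0380). Cpeb3, a regulator of translation at synapses, went from 265.01 and 264.8 to 116.78 and 116.62 CPM (-1.18 ± 0.13, adjusted p = 0.0148), and Pura, which binds mRNA carried along dendrites, from 777.86 and 694.77 to 354.7 and 333.86 CPM (-1.10 ± 0.14, adjusted p = 0.0246). Copg2, a coat protein of Golgi vesicles (-1.02 ± 0.15), and Lrrc58 (-0.97 ± 0.14) fell with the same adjusted p of 0.0380. H19, an imprinted non-coding RNA, stood at 1.01 and 0.63 CPM against 7.29 and 7.11 CPM (-3.10 ± 0.42, adjusted p = 0.0376), with 6.68 to 28.85 CPM without Cre. Scaling by library size alone ended the calls of Kcnk9, Scn4b, Calb2, Celsr2, Spock1, Pura, Copg2 and Lrrc58, as it did for Stmn3, Itm2a, Nfia, Klc2, Zfp451, Cox5a, Ndufc2 and Ndufs3, with every sign kept.

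**Figure D4:**
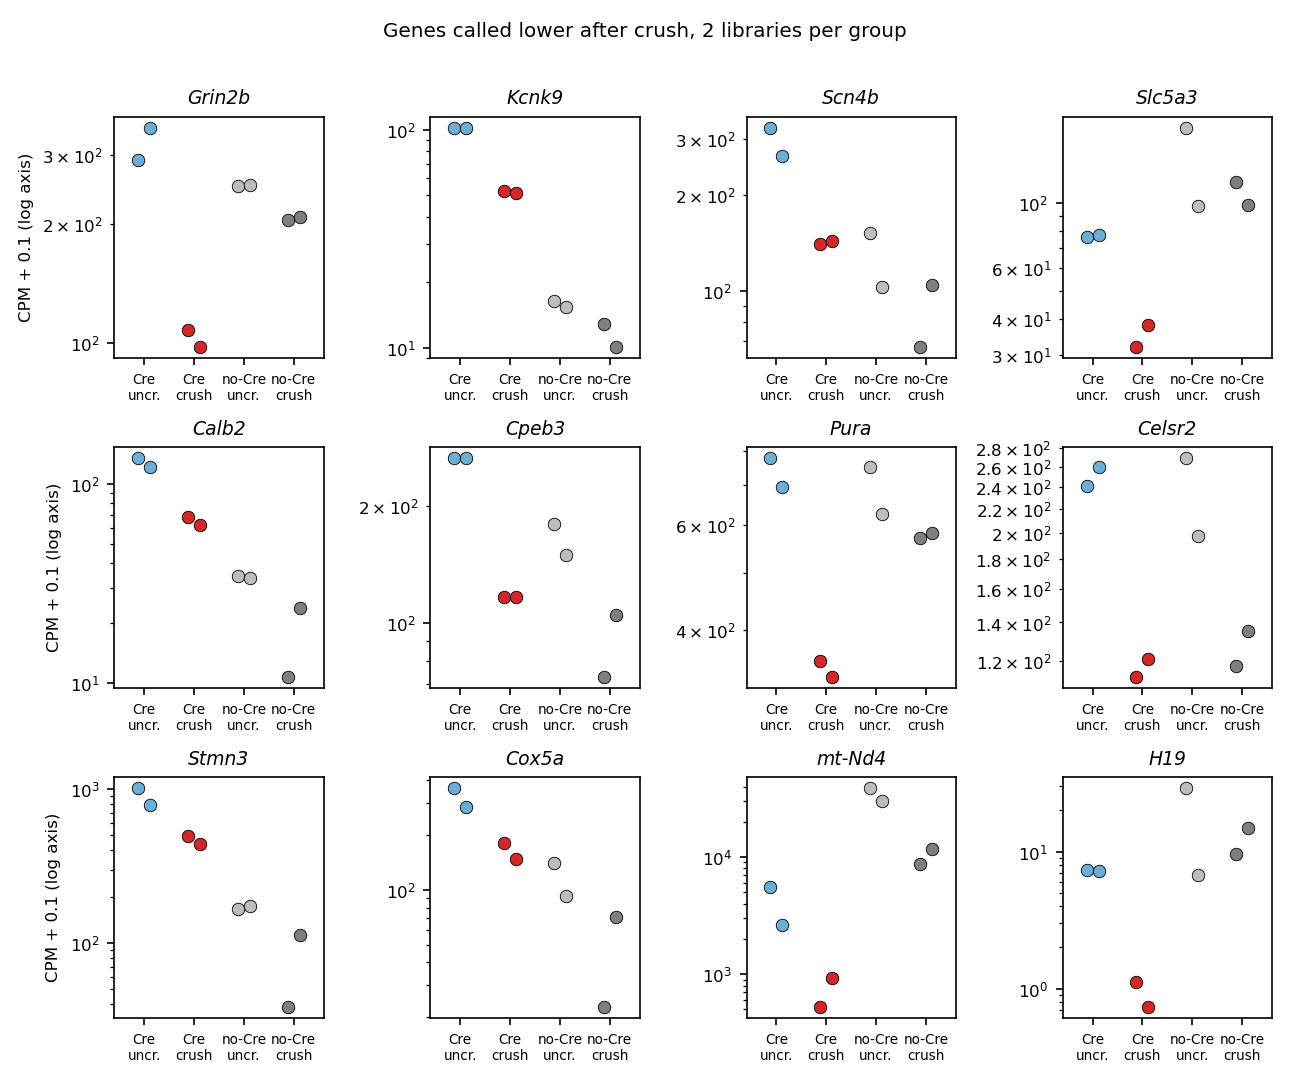
CPM plus 0.1 on log axes for 12 genes called lower, with 1 point per library and 2 libraries in each of the 4 groups (uncr., uncrushed). In Grin2b, Slc5a3 and H19 the Cre crushed points lie below all other libraries, whereas Kcnk9, Calb2 and Stmn3 remain above every no-Cre library.

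Mitochondrially encoded mRNAs, which are translated inside mitochondria and not by tagged ribosomes, fell most as a list. Of the 13, 6 were called lower and all 13 had an unadjusted p under 0.05 on the lower side, beside 0.558% and 10.5% of all genes, with a median of -2.34. mt-Nd4, a complex I subunit, stood at 521.36 and 928.73 CPM after crush and at 5563.41 and 2609.33 CPM before (-2.49 ± 0.39, adjusted p = 0.0431, edgeR). mt-Nd3, another, stood at 14.43 and 21.12 CPM against 163.27 and 71.39 CPM (-2.72 ± 0.38, adjusted p = 0.0380). mt-Nd2, mt-Nd5, mt-Co2 and mt-Atp8 fell by 2.34 to 2.77 on the log2 scale. The summed level was 4740.2 and 7706.6 CPM after crush, 33318.7 and 15476.5 CPM before, and 66400.8 to 221998 CPM without Cre, where both crushed libraries were again the lower ones. Robust estimation of the dispersion and the length offset left none of these 6 called. The part of untagged RNA in their fall was not tested.

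Of 29 nuclear genes of oxidative phosphorylation, Cox5a alone, a subunit of complex IV, was called lower, beside 0.558% of all genes. It went from 361.41 and 286.32 to 180.07 and 148.1 CPM (-0.98 ± 0.17, adjusted p = 0.0457, edgeR), and the list's median was -0.31. At an unadjusted p of 0.05, 13 of the 29 were lower and 4 higher, beside 10.5% and 9.52% of all genes. Ndufc2 (-0.99 ± 0.17) and Ndufs3 (-0.86 ± 0.15), complex I subunits outside the list and chosen after their values were seen, were also called lower (adjusted p = 0.0480 and 0.0482, edgeR). Atp5b, the beta subunit of ATP synthase, stood higher, at 1286.21 and 1097.72 CPM against 485.14 and 687.66 CPM, and missed the threshold (1.02 ± 0.19, adjusted p = 0.0527). Lars2, the mitochondrial leucyl-tRNA synthetase, fell from 20047 and 15215 to 5573 and 6710 CPM (-1.52 ± 0.19, adjusted p = 0.0246). Gm42418 fell beside it, by 1.71 ± 0.21 on the log2 scale (adjusted p = 0.0246), and was chosen after its values were seen. The totals without ribosomal and mitochondrial RNA left out Lars2 together with Gm42418. Whether the reads counted for Lars2 come from its mRNA was not tested.

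The largest decreases belonged to predicted genes and pseudogenes, named after their values were seen. The lincRNA Gm26582 stood at 2.72 and 5.06 CPM after crush and at 90.81 and 86.09 CPM before (-4.52 ± 0.28, adjusted p = 0.000678, edgeR). It moved the same way without Cre, at 11.4 and 21.16 CPM against 70.97 and 81.2 CPM. Gm10052, a processed pseudogene, went from 438 counts to 0, at least 231-fold lower, and Gm10020, another, from 171 to 0, at least 90.3-fold lower. Without Cre, Gm10052 was also lower, at 0 CPM in both crushed libraries against 6.24 and 6.68 CPM, and Gm10020 overlapped. Reads of a processed pseudogene can be shared with its parent gene, so these values are uncertain. Of the 77 lower genes 20 carry such predicted or unnamed symbols, and the share of these among all genes tested was not counted.

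Several lists often followed after axon injury had no called member. The 23 genes of the integrated stress response had a median of 0.10, with Atf4 at 42.22 and 39.24 CPM against 63.75 and 51.52 CPM (adjusted p = 0.145) and the asparagine synthetase Asns at 94.63 and 92.88 CPM against 79.75 and 88.62 CPM (adjusted p = 0.574). The 26 genes of the unfolded protein response and heat shock had a median of -0.16, with the chaperone Hspa8 at 3691 and 3749 CPM against 3836 and 4297 CPM (adjusted p = 0.666). The 20 cytosolic tRNA synthetases had a median of 0.00, and Gars, the glycyl enzyme named in the series, stood at 137.41 and 120.97 CPM against 122.55 and 129.04 CPM (0.04 ± 0.14, adjusted p = 0.911). The 24 genes of cholesterol synthesis had a median of 0.17, with Hmgcs1 at adjusted p = 0.221. The 18 immediate early genes had a median of -0.35, with the phosphatase Dusp1 at 29.56 and 18.67 CPM against 56.2 and 43.24 CPM (-1.04 ± 0.24, adjusted p = 0.0787). The 27 neurotrophic and cytokine receptors had a median of -0.10, with Lifr, the receptor for leukaemia inhibitory factor, at 289.57 and 251.58 CPM against 399.79 and 449.74 CPM (adjusted p = 0.0730) and the GDNF receptor Ret at adjusted p = 0.266. The 38 axon guidance genes (median -0.10), the 27 genes of synaptic vesicles and release (-0.14, Snap25 at adjusted p = 0.311), the 19 of MHC class I and the interferon response (0.10) and the 14 of the cell cycle (-0.18) had none either. Without a call, 9 of the 27 synaptic vesicle genes were lower and 2 higher at an unadjusted p of 0.05 (edgeR), beside 10.5% and 9.52% of all genes. All adjusted p-values are edgeR's, and a p that misses the threshold does not show that levels were the same.

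**Figure D5:**
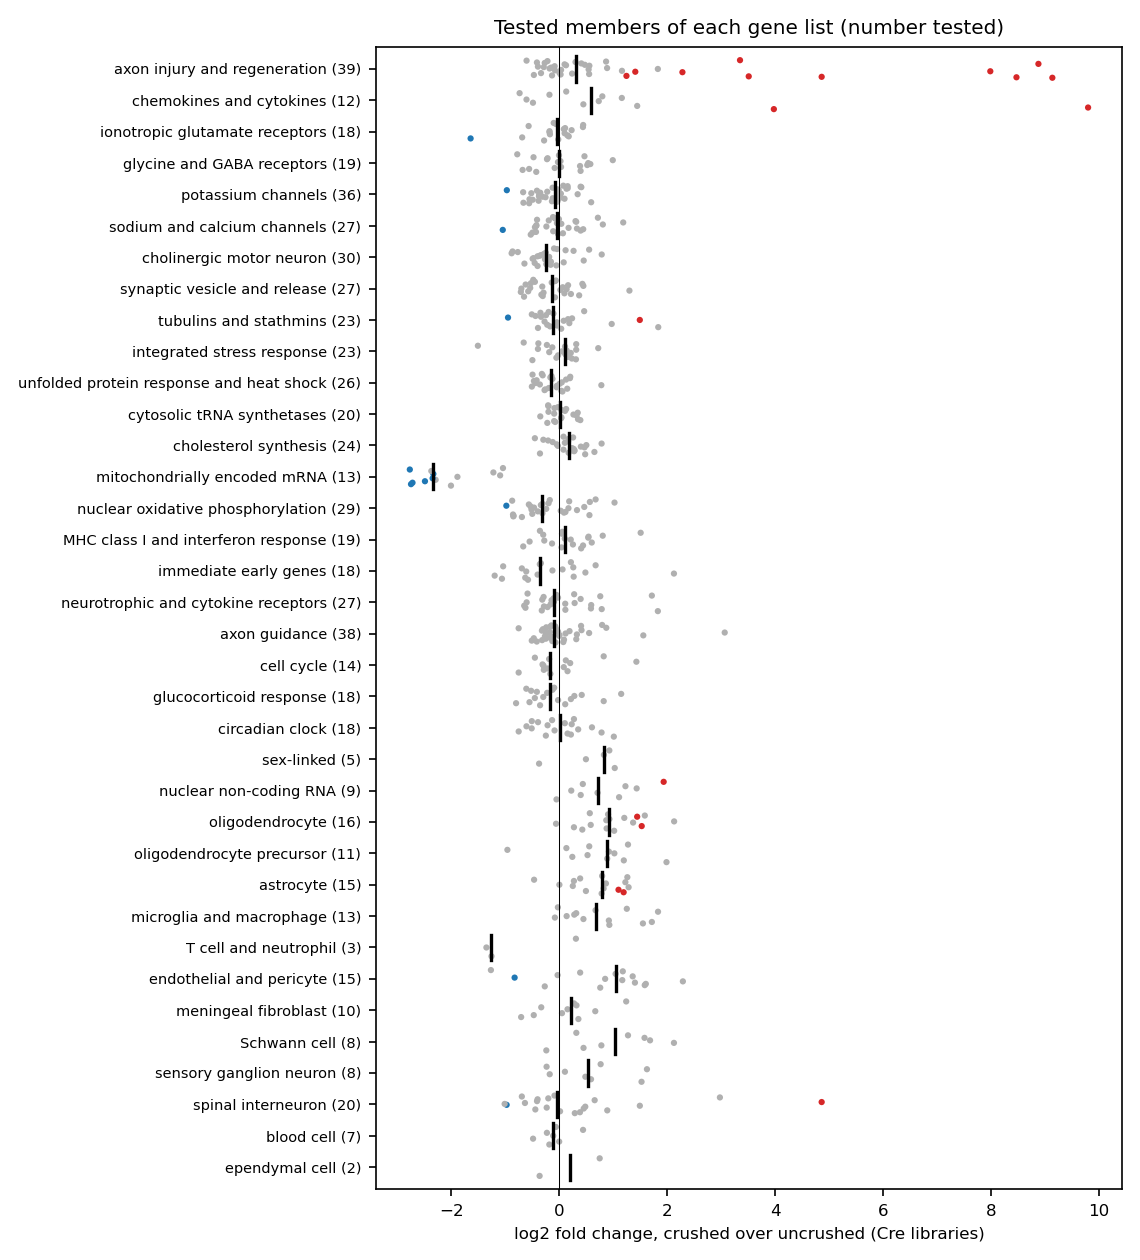
Log2 fold change, crushed over uncrushed, of every tested member of the 36 gene lists in the Cre libraries; red points were called higher, blue points lower and grey points neither, and the black bar is the list median. The axon injury list holds 10 red points with a median of 0.30, both set in part by the filter on reads. The mitochondrially encoded list lies wholly to the left with a median of -2.34.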

How the data were processed

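RNA from anti-HA precipitates of whole spinal cord was sequenced, 2 libraries per group. The authors' deposited gene tables give RSEM expected counts per gene, TPM and effective lengths, made with Bowtie2 2.2.0 and RSEM 1.2.12 per the submitters' processing notes; which build and annotation they used was not given in the sources used here. Deposited expected counts were rounded. The authors' deposited TPM values, scaled per length, were used only to compare levels between genes and beside Grin2b. Symbols were found for 37607 of 38924 identifiers (96.62%), and gene types come from GENCODE. No row lacked a gene name.

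The 4 Cre libraries were fitted in edgeR 4.0.16 (R 4.3.3): filterByExpr (minimum count 10, minimum total 15), TMM, 1 mean per group, glmQLFit and two-sided glmQLFTest with 2 residual degrees of freedom, Benjamini-Hochberg over 13808 genes. The difference of crush effects used all 8 libraries. Values after ± are standard errors (log2 fold change over the square root of F), with n = 2 per group. CPM use TMM totals of all 8 libraries. Totals were 4826979 to 11522721 counts, so 3 counts equal 0.19 to 1.17 CPM. A group at 0 was set at 3 counts in all. Intervals and bounds cover counting error only.

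Alternatives were DESeq2 1.42.0 and its size factors, library size alone, other filters, robust dispersion, all libraries, and each library left out; totals without ribosomal and mitochondrial RNA and the length offset were added after seeing the data. Scripts were tested on simulated data. Genes and lists (36, with 745 of 752 symbols matched) were chosen with earlier results of these data known. The text names a fixed set of 10 genes, the 15 called per direction with the smallest p (predicted genes aside), called list members, and up to 2 abundant further members per list. Some genes that this rule selects are not reported here.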

Additional observations from a re-analysis of the deposited data

How the results depend on the processing

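Of genes called higher there were 49, and of genes called lower 77. Scaling by library size alone gave 1638 higher, and totals without ribosomal and mitochondrial RNA gave 86 and 28. With no filter there were 603 and 549, with DESeq2's Wald test 227 and 538 (6157 genes had no adjusted p), with robust dispersion 153 and 253, with all 8 libraries 6 and 5, and with effective length as an offset 13 and 13. Leaving out 1 library gave 23 to 525 higher and 11 to 583 lower; the causes were not tested. DESeq2's size factors and a mean of at least 5 CPM stayed within 1.5 times. Sprr1a, Atf3, Serpinb1a, Leng8, Gm26582 and Gm10052 passed under all 13 alternatives, and Ccl7 under all but DESeq2's test, which gave it no adjusted p. The difference of crush effects gave 0 calls, 87 with no filter, 15 with DESeq2 and 0 without any 1 library. Ddx3y, not called with all 4 libraries, ran from -11.15 (without animal 35) to 11.03 (without animal 3). No paired analysis was possible because the groups share no animal numbers. A count of 0 allows up to 0.19 to 0.39 CPM in a Cre library.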

Other observations

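Further gene groups had few or no calls after crush in the Cre libraries. Of 20 spinal interneuron markers Npy was called higher and Calb2 lower, beside 0.355% and 0.558% of all genes, with a median of -0.04. The glycine transporter Slc6a5 was at 84.43 and 131.65 CPM against 97.44 and 80.15 CPM. The enkephalin precursor Penk was at 71.27 and 51.03 CPM against 66.09 and 96.51 CPM, and both genes overlapped between groups. Of 9 tested genes on the nuclear non-coding RNA list Leng8 alone was called, higher (median 0.71), beside 0.355% of all genes. GENCODE types Leng8 as protein coding, so no gene typed as non-coding was called on this list. The abundant Malat1 stood at 3431 and 5386 CPM against 6024 and 3139 CPM. The 18 glucocorticoid response genes (median -0.18) and 18 circadian clock genes (0.01) had no call. Tsc22d3, a glucocorticoid-induced leucine zipper, stood at 152.35 and 132.6 CPM against 278.41 and 218.15 CPM (-0.80 ± 0.16, adjusted p = 0.0637, edgeR).

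Markers of oligodendrocyte precursors summed to 81.2 and 110.5 CPM after crush and 59.2 and 63.9 CPM before, with 0 of 11 called (median 0.89). None was called among 10 markers of meningeal fibroblasts (0.21), 7 of blood cells (-0.11), 2 of ependymal cells (0.19), 3 of T cells and neutrophils (-1.26) and 5 sex-linked genes (0.83). The 15 tested endothelial and pericyte markers had a median of 1.04 although their summed level was not higher after crush.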
